A study of Mus musculus with 9 samples.

Results

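The genes described here encode the proteins of the cytosolic ribosome. They were chosen by symbol from the array's probe-to-gene annotation: symbols starting with Rpl or Rps and a digit, plus Rplp0, Rplp1, Rplp2 and Rpsa. That gave 75 matches, of which 6 Rps6k kinases, 1 gene for a binding partner (Rps19bp1) and 1 pseudogene symbol were left out. The remaining 67 genes, each read by 1 probe set, stood among 19572 probe sets with a gene symbol. By prefix 41 belonged to the large subunit (Rpl) and 26 to the small subunit (Rps). Rplp2 and several other ribosomal protein genes, such as Rpl10, Rpl13a and Rps27, were not analysed here.

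RNA levels were read in tibialis anterior, the shin muscle that lifts the foot and is made mostly of fast fibres, on 9 Clariom S mouse arrays. Control mice carried both genes intact (MCU+/+/MCUb+/+). MCU knockout mice lacked the pore subunit of the mitochondrial calcium uniporter (MCU-/-/MCUb+/+), and MCUb knockout mice lacked its paralogue (MCU+/+/MCUb-/-). Each genotype had 3 arrays, and all mice were 2 months old and of strain C57/BL6. The sources used here do not say in which tissues the genes were deleted, how, or whether the 3 samples of a genotype came from separate mice. The p-values thus rest on the spread from sample to sample, part of which may be technical.

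The cytosolic ribosome translates nuclear-encoded mRNA, including that of most mitochondrial proteins, and its proteins are made in equal numbers, one of each per ribosome for nearly all of them. Many of their mRNAs begin with a C followed by a run of pyrimidines, the 5′ terminal oligopyrimidine tract, through which mTORC1 and LARP1 set their translation together. Muscle has a ribosomal protein of its own: RPL3L takes the place of RPL3, a protein near the catalytic centre of the large subunit, in heart and skeletal muscle. Several further members are copies or paralogues of standard subunits, among them Rpl22l1, Rpl36al, Rps27l and the retrogenes Rpl37rt and Rps27rt.

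The start sites of the members are shown for what they have in common apart from their names. Of the 67 genes, 54 had an entry in the RefSeq promoter table of GRCm38.p6. At the annotated start of 13 of them (24.1%) the transcript opened with a C followed by at least 4 pyrimidines, against 3.01% of the 27025 genes of the table. Below are 10 bases before and 20 from the start on, with that tract in capitals. The first 5 have the tract. The last 3, the muscle paralogue Rpl3l and the genes with the lowest changes below, have none at the start given.
Rps6 (chr4:86857348-86857377, minus strand): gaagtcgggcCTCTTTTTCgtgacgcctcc
Rpl15 (chr14:18270967-18270996, minus strand): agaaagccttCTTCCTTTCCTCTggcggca
Rps18 (chr17:33955646-33955675, minus strand): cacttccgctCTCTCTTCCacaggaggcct
Rpl38 (chr11:114668570-114668599, plus strand): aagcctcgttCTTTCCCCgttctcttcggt
Rpl35a (chr16:33056472-33056501, plus strand): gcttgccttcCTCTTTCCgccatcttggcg
Rpl3l (chr17:24727816-24727845, plus strand): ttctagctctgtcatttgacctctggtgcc
Rplp0 (chr5:115559457-115559486, plus strand): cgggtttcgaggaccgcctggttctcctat
Rps9 (chr7:3704031-3704060, plus strand): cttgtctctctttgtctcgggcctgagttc
Where a gene has several annotated starts, 1 is shown. Annotated starts can lie some bases away from the start used, so a missing tract says only that these letters were not at this position. Rps9, for example, has a pyrimidine run across its annotated start. The letters CCGGAAG, the core bound by ETS factors such as GABP, occurred on either strand of the 300 bases around the start in 21 of the 54 genes (38.9%) and in 9.93% of all genes. The letters GCCATCTT, the core of a YY1 site, occurred in 4 of the 54 (7.41%), among them Rpl35a, and in 3.19% of all genes. The promoters were compared by letters only, and no binding was measured.

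Ribosomal protein transcripts were well measured. Background was set, array by array, at the 95th percentile of its 23 background control sets, which came to 5.87 to 5.92 on the log2 scale. Of the 67 members, 64 were above it on all 9 arrays, and 65 on all 3 arrays of at least 1 genotype. Rpl39l, a paralogue of Rpl39 known from testis, was above it on none of the arrays (3.74 to 4.27). Rps23rg1, a retrogene of Rps23, was above it on 1, 1 and 2 arrays of control, MCU knockout and MCUb knockout. Rpl10l, the testis paralogue of Rpl10, lay near the limit and was under it on 1 control array. Control means of the 65 measured members ran from 6.09 for Rpl10l to 17.73 for Rpl41. Signals of different probe sets are not on 1 scale, so this range does not rank the transcripts.

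The arrays differed in ways the genotype does not give. Control replicate 3 stood apart, at -70.8 on the first principal component against -20.3 to 21.9 for the others, and had the lowest array weight in limma (0.436 against 0.671 to 1.31). All 8 markers of fast fibres were above background on all 3 arrays of at least 1 genotype, and their mean log2 level was 18.19 on that array and 18.43 to 18.66 on the others. Against control, 7 of the 8 were higher and 1 lower in each knockout, with medians of 0.18 (MCU knockout) and 0.17 (MCUb knockout). The mean of 4 measured macrophage markers lay between 6.46 and 7.07 on control, 6.62 and 7.59 on MCU knockout and 6.60 and 7.44 on MCUb knockout arrays. The mean of 4 measured fibroblast markers was 10.96 to 11.49, 10.83 to 12.13 and 11.07 to 11.56 in the same order, and neither of 2 measured Schwann cell markers was above background on all 3 arrays of any genotype. All 4 macrophage markers were higher than control in both knockouts (medians 0.49 and 0.25), though only 3 were above background in that sense. Of the 4 fibroblast markers, 3 were higher and 1 lower in the MCU knockout (median 0.38). In the MCUb knockout 2 were higher and 2 lower (median -0.05). None of these markers passed in limma. The mean of 5 endothelial markers was 9.45 to 10.31 in control, 9.68 to 10.20 in the MCU knockout and 8.99 to 9.69 in the MCUb knockout, where Cldn5 was at -1.21 and Kdr at -1.09 against control (adjusted p = 0.477 and 0.555). Of the 5 endothelial markers, 3 were below and 2 above control in the MCUb knockout, with a median of -0.19. Between the knockouts Cldn5 differed by 1.76 (adjusted p = 0.098), with 3 of the 5 higher in the MCU knockout and 2 lower. The mean of 2 measured blood cell markers was 7.22 to 8.21, 7.29 to 7.55 and 7.24 to 7.65, and Alas2, of red cell precursors, was at -0.77 and -0.59 against control (adjusted p = 0.332 and 0.562). The other of the 2, Slc4a1, was above control in both knockouts, and the median of the 2 was -0.25 and -0.20. Means of 4 adipocyte markers were 7.87 to 8.68, 7.85 to 8.16 and 7.68 to 7.89, and of 6 satellite cell and regeneration markers 7.34 to 7.48, 7.32 to 7.85 and 7.29 to 7.58. Of these, 1 adipocyte and 3 satellite cell markers were above background on all 3 arrays of at least 1 genotype. On no array above it were 2 adipocyte and 3 satellite cell markers. All 4 adipocyte markers were below control in both knockouts, with medians of -0.16 (MCU knockout) and -0.42 (MCUb knockout). Uty and Kdm5d, both Y-linked, averaged 7.24 to 7.80 on MCU knockout replicates 2 and 3 and MCUb knockout replicate 1, and 3.01 to 3.89 on the other 6. In bulk muscle, fewer cells of a type and less RNA per cell cannot be told apart. The deleted gene Mcu had a log2 mean of 6.94 ± 0.13 (SD, n = 3) in the MCU knockout against 10.60 ± 0.31 in control.

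The summed picture of the 65 measured members followed single arrays as well as genotypes. Their mean log2 level was 13.96, 13.94 and 14.06 on the control arrays, 13.73, 13.84 and 13.83 on the MCU knockout arrays and 13.84, 13.95 and 13.95 on the MCUb knockout arrays. The MCU knockout arrays were thus all below the control arrays, and the MCUb knockout arrays overlapped with control. Of the 65 genes, 28 (43.1%) had their highest value on control replicate 3, where 19.1% of all 9948 probe sets above background had theirs. MCU knockout replicate 1 held the lowest value of 26 genes (40%), against 13.1% of all probe sets above background. The 3 arrays with a high Y-linked level had member means of 13.83 to 13.84, and all 6 others except MCU knockout replicate 1 (13.73) lay at 13.94 or above. Every control array had a low Y-linked level, so a comparison at that level alone would rest on 1 MCU knockout array. The part of the Y-linked level and of the cell type markers in the members' levels was not tested beyond the values given here.

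**Figure D1:**
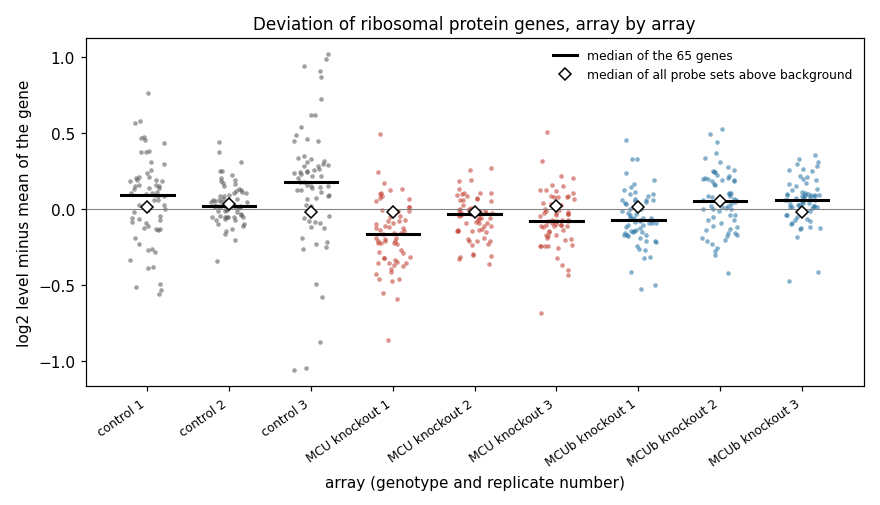
Each point is 1 of 65 ribosomal protein genes, plotted as its log2 level on an array minus its mean over the 9 arrays (vertical axis), for each array by genotype and replicate number (horizontal axis). Black bars give the median of the 65 genes and open diamonds that of all probe sets above background. Control replicate 3 has the highest median (0.18) and the widest scatter, and MCU knockout replicate 1 the lowest median (-0.16).

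Between MCU knockout and control, ribosomal protein transcripts lay mostly a little lower, and no single one passed the test. Of the 67 members, 52 (77.6%) were below control, against 52.4% of all probe sets, with a median log2 change of -0.17 against -0.02. In limma 0 members passed an adjusted p of 0.05, where 31 of 22206 probe sets (0.14%) passed, and the members' adjusted p ran from 0.132 to 0.992. At an unadjusted p under 0.05, 10 members differed, 9 lower and 1 higher, against 10.1% of all probe sets, 5.35% lower and 4.76% higher. The members' share of 14.9% was near the 14.8% of probe sets above background, the set to which 65 of the 67 belong. By direction it was more one-sided, since of the 9948 probe sets above background 772 were lower and 698 higher. In 20 members (29.9%) the arrays of the groups did not overlap, all 20 of them lower in the knockout. The same held for 13.4% of all probe sets, 7.33% lower and 6.08% higher, and for 16.5% of those above background.

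The lower level of most members remained without the control array that stood apart. Without control replicate 3, 51 of 67 members were below control with a median of -0.14, and 20 did not overlap on the low side and 1 on the high side, against 11.6% and 11% of all probe sets. Without control replicate 2 these counts were 34 and 7, against 17.3% and 14.2%. With that Y-linked mean as a term of the fit, 48 of 67 were lower and the median was -0.16. Every control array had a low Y-linked level, so the part of that level was not tested by this fit. Over all settings tried, the median was between -0.22 and -0.14, and centring each array on the bright probe sets left 52 of 67 lower.

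**Figure D2:**
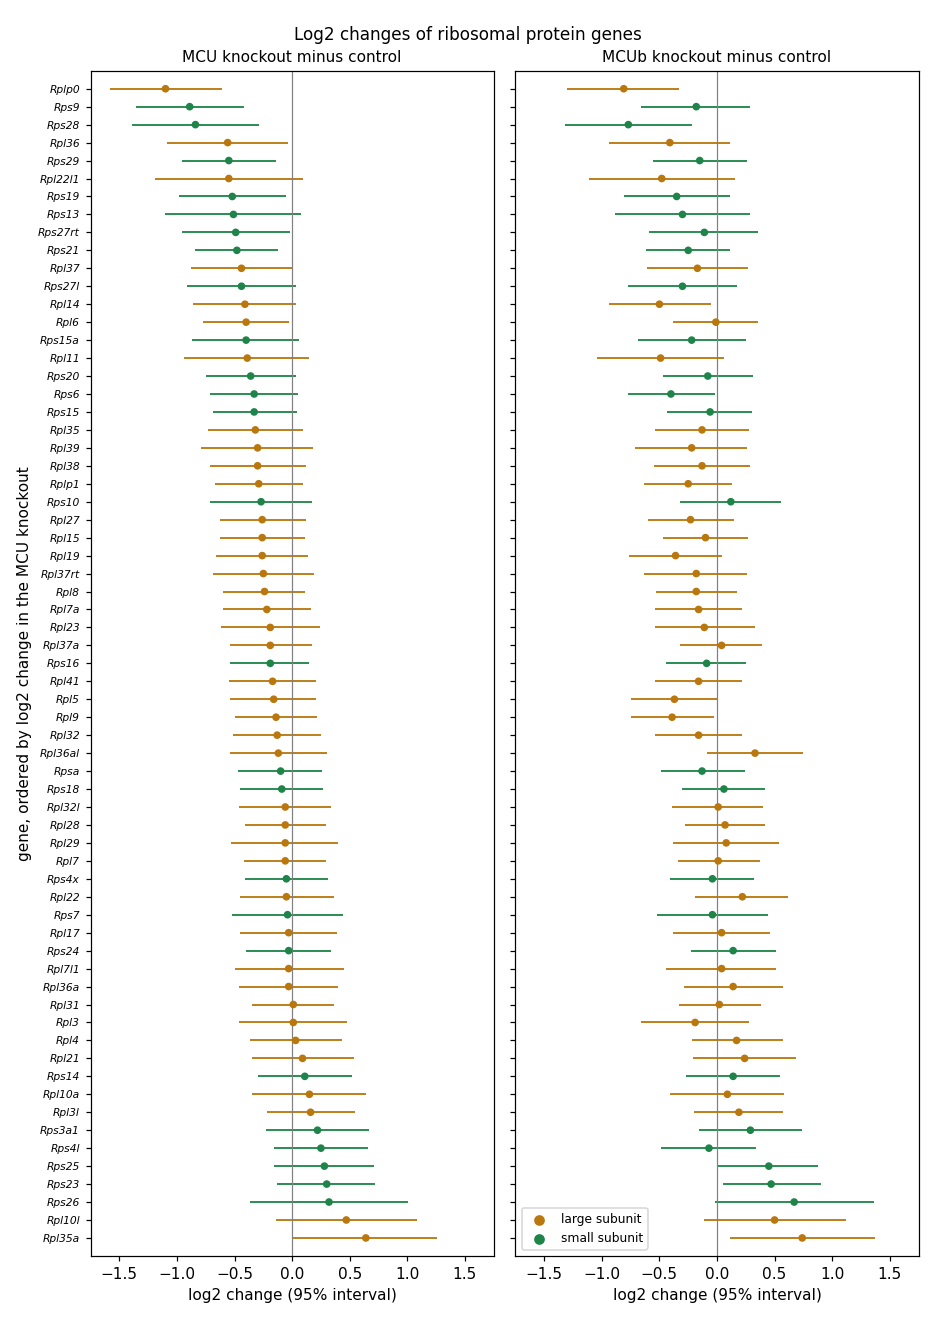
Log2 change of 65 ribosomal protein genes (vertical axis, ordered by the change in the MCU knockout) in the MCU knockout (left) and MCUb knockout (right) against control, with horizontal lines for the 95% interval of the limma fit over 9 arrays. Colours give the subunit. Most points of the left panel lie below 0, from -1.10 for Rplp0 to 0.64 for Rpl35a, and both panels share the control arrays.

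Rplp0 (probe set TC0500001266.mm.2, chromosome 5) had the lowest change of all 67 members against control in both knockouts. Its protein is the base of the stalk on which elongation factors land, and its transcript is often used as a reference in PCR. Its log2 level was 10.55, 9.99 and 10.73 in control, 9.39, 9.49 and 9.10 in the MCU knockout and 9.54, 9.51 and 9.78 in the MCUb knockout. All 6 knockout arrays lay below the lowest control array. The change was -1.10 (SE 0.22, 2.14-fold lower, adjusted p = 0.132 in limma) in the MCU knockout and -0.81 (SE 0.22, 1.76-fold lower, adjusted p = 0.477) in the MCUb knockout. Without control replicate 2, its lowest control value, the change in the MCU knockout was -1.31 and passed (adjusted p = 0.0326), within a range of 0.0326 to 0.458 over all settings. The other measured stalk protein gene, Rplp1, stood at 16.94, 16.72 and 16.98 in control, at 16.69, 16.64 and 16.44 in the MCU knockout and at 16.55, 16.56 and 16.78 in the MCUb knockout. Its change of -0.29 (95% interval -0.67 to 0.09) in the MCU knockout and -0.25 in the MCUb knockout was within the error of the fit, though the MCU knockout arrays did not overlap with control.

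Rps9 had its lowest levels in the MCU knockout. Its protein sits at the entry of the mRNA channel of the small subunit. Its level was 12.20, 12.14 and 12.02 in control and 10.90, 11.40 and 11.39 in the MCU knockout, with 11.70, 12.29 and 11.82 in the MCUb knockout. Every MCU knockout array was below every other array, while MCUb knockout and control overlapped. The change against control was -0.89 (SE 0.22, 1.85-fold lower, adjusted p = 0.248), and against the MCUb knockout -0.71 (SE 0.22, adjusted p = 0.555, unadjusted p = 0.00718), so neither passed in limma.

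Rps28, a small protein at the exit of the mRNA channel, was low in both knockouts against a wide control group. It stood at 12.88, 12.34 and 13.34 in control, 11.84, 12.12 and 12.07 in the MCU knockout and 12.26, 12.16 and 11.84 in the MCUb knockout. The lowest control array was above all 6 knockout arrays by a narrow margin. The changes were -0.84 (SE 0.25, adjusted p = 0.341) and -0.77 (SE 0.25, adjusted p = 0.534), and -0.60 and -0.53 without control replicate 3.

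Other small-subunit genes without overlap in the MCU knockout had smaller changes. Rps29, a zinc-binding protein of the head, stood at 15.47, 15.20 and 15.31 in control and at 14.54, 14.94 and 14.85 in the MCU knockout (log2 change -0.55, SE 0.19, adjusted p = 0.381). Rps21 had a tight control group, 13.39, 13.43 and 13.53, against 12.85, 12.99 and 13.06 (change -0.48, SE 0.16, adjusted p = 0.385). Rps19, the gene most often mutated in Diamond-Blackfan anaemia, was at 10.15, 10.09 and 10.62 in control and at 9.64, 9.68 and 9.99 in the MCU knockout (change -0.52, SE 0.21, adjusted p = 0.456). Each of the 3 genes was lower on every MCU knockout array than on any control array. In the MCUb knockout their changes were -0.15 for Rps29, -0.25 for Rps21 and -0.35 for Rps19, which was at -0.18 without control replicate 3 and at -0.22 without MCUb knockout replicate 1.

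Rps6, whose protein is the classic substrate of S6 kinases, had a change of like size in both knockouts. Its level was 17.78, 17.44 and 17.42 in control, 17.15, 17.21 and 17.29 in the MCU knockout and 17.18, 17.10 and 17.18 in the MCUb knockout. The knockout arrays were all lower than control, by 0.33 (95% interval of the change -0.71 to 0.05) and 0.40 (-0.77 to -0.02). The adjusted p was 0.545 and 0.594 in limma. Without control replicate 1 the change in the MCU knockout was -0.21. The array reports the transcript and not the phosphorylation of the protein. Rpl36, of the large subunit, was at 10.05 ± 0.47 (SD, n = 3) in control and 9.48 ± 0.20 in the MCU knockout (change -0.56, adjusted p = 0.472), and its highest value was that of control replicate 3, without which the change was -0.29.

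A minority of members lay higher in the knockouts, and the highest of them had scattered control values. Rpl35a, another Diamond-Blackfan anaemia gene, stood at 14.98, 15.79 and 14.48 in control, at 15.49, 15.80 and 15.86 in the MCU knockout and at 15.87, 15.85 and 15.75 in the MCUb knockout. The knockout values were close together, and control replicate 2 lay among them. The changes were 0.64 (SE 0.29, adjusted p = 0.486) and 0.74 (SE 0.29, adjusted p = 0.565), and 0.34 and 0.44 without control replicate 3. In the MCU knockout it was 0.99 without control replicate 2. Rps26, of the mRNA exit channel, was at 12.38, 13.21 and 11.72 in control, 12.54, 12.74 and 12.98 in the MCU knockout and 13.22, 12.98 and 13.12 in the MCUb knockout. Its change in the MCU knockout, 0.32 (SE 0.31, adjusted p = 0.753), was -0.04 without control replicate 3, 0.70 without control replicate 2 and 0.20 without MCU knockout replicate 3. Rps23, of the decoding centre, and Rps25, which some viral and cellular mRNAs need for initiation, had changes of 0.30 and 0.28 in the MCU knockout. Neither passed in limma (adjusted p = 0.624 and 0.664). Without control replicate 3 they were at 0.18 and 0.11, and Rps25 was at 0.44 without control replicate 2.

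**Figure D3:**
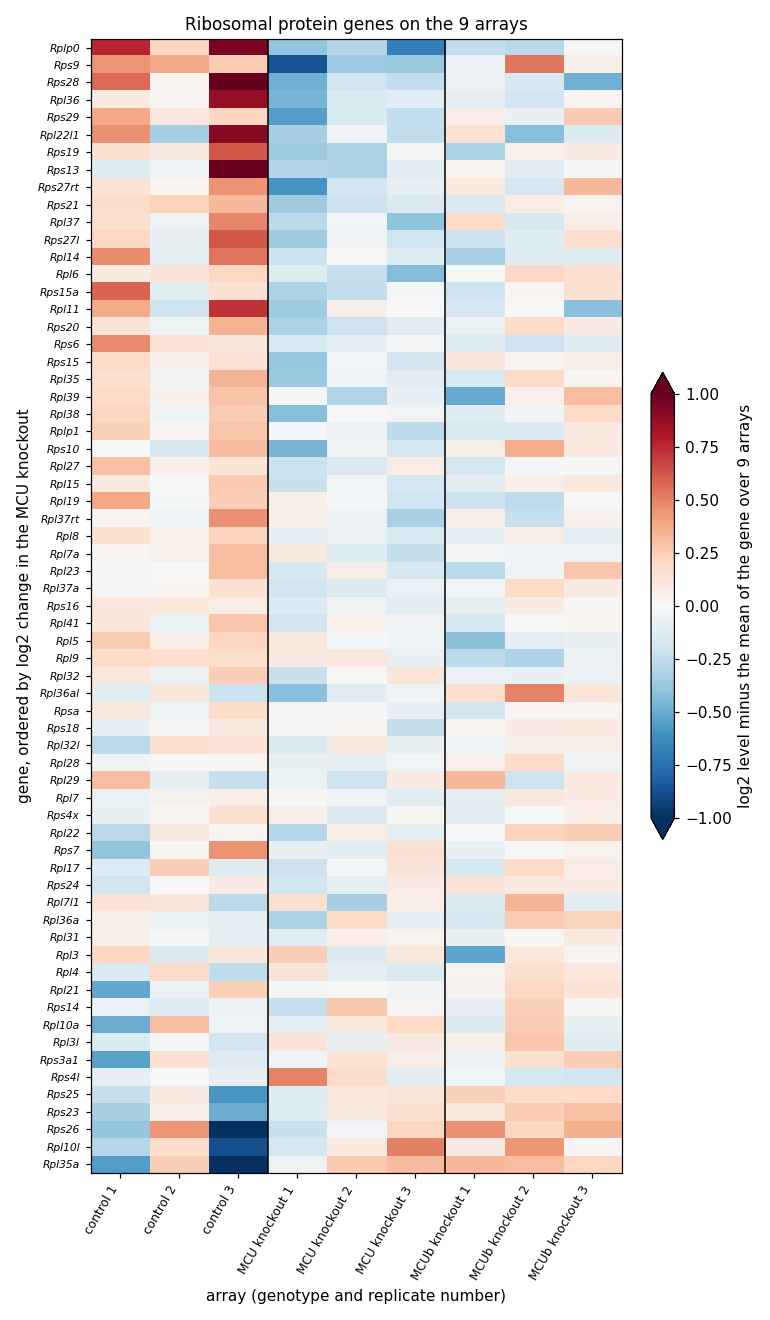
Log2 level of 65 ribosomal protein genes (rows, ordered by the change in the MCU knockout) on each of the 9 arrays (columns, by genotype and replicate number), as the difference from the mean of the gene over all arrays, red for higher and blue for lower. Colours end at 1 and -1. Many of the upper rows are red on control replicates 1 and 3 and pale to blue on the MCU knockout arrays. The MCUb knockout arrays are more mixed there, with Rps9 red on replicate 2. The lowest rows, Rps26, Rpl10l and Rpl35a, are dark blue on control replicate 3.

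Grouped by role, members of a structure lay on the same side in some cases and not in others. The role groups were drawn up with results of these data known and are described by their counts. Both 5S particle genes, Rpl5 and Rpl11, whose proteins also bind MDM2 when ribosome assembly fails, were below control, at -0.16 and -0.39 in the MCU knockout and at -0.37 and -0.49 in the MCUb knockout. Rpl11 was at -0.18 and -0.28 without control replicate 3 and at -0.65 and -0.75 without control replicate 2. Of 6 genes of the polypeptide exit tunnel, 4 were below control in the MCU knockout (median -0.14) and 3 in the MCUb knockout (median -0.06). Of 5 genes of the mRNA channel and decoding centre, Rps9 and Rps28 were below control and Rps14, Rps23 and Rps26 above it in both comparisons. Of 15 genes mutated in Diamond-Blackfan anaemia, 12 and 10 were below control, with medians of -0.26 and -0.13. Rpl38, a large-subunit protein known for tissue-specific defects when lost, stood at -0.30 (-0.16 without MCU knockout replicate 1) and -0.13, and Rpsa, which doubles as a laminin receptor, at -0.10 and -0.13. By subunit, the median in the MCU knockout was -0.16 over 41 large-subunit and -0.23 over 26 small-subunit genes. None of these genes passed in limma.

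The muscle paralogue Rpl3l and its standard counterpart Rpl3 did not pass the test in any comparison. Rpl3l (probe set TC1700000350.mm.2, chromosome 17) had log2 levels of 15.52, 15.63 and 15.46 in control, 15.78, 15.58 and 15.74 in the MCU knockout and 15.71, 15.93 and 15.53 in the MCUb knockout. Its changes were 0.16 (95% interval -0.22 to 0.55, adjusted p = 0.773 in limma) and 0.19 (-0.20 to 0.57, adjusted p = 0.787). Rpl3 (TC1500001896.mm.2, chromosome 15) was at 11.47, 11.12 and 11.39 in control, 11.51, 11.13 and 11.37 in the MCU knockout and 10.74, 11.37 and 11.29 in the MCUb knockout. Its groups overlapped in all comparisons, with changes of 0.01 (95% interval -0.46 to 0.48) and -0.19 (-0.66 to 0.28). The MCUb knockout value leaned on replicate 1, the lowest of the 9 arrays.

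Within an array, the log2 level of Rpl3l minus that of Rpl3 tells whether the pair shifted against each other, though its own size depends on the probes. It averaged 4.21 ± 0.26 (SD, n = 3) in control, 4.37 ± 0.09 in the MCU knockout and 4.59 ± 0.36 in the MCUb knockout. By exact permutation tests, two-sided, the differences from control were 0.15 (p = 0.4) and 0.38 (p = 0.2), and that between the knockouts was -0.23 (p = 0.5). The smallest p that 3 arrays against 3 allow is 0.1.

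**Figure D4:**
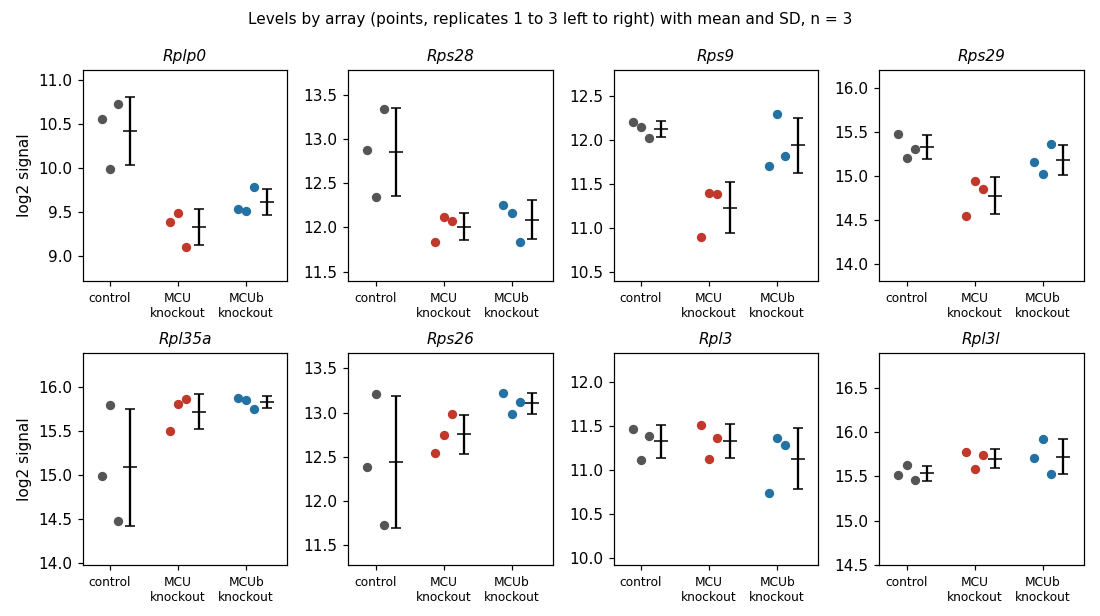
Log2 signal (vertical axis) of 8 ribosomal protein genes on each array, by genotype (horizontal axis), with the mean and SD (n = 3) beside the points; every panel spans the same range of log2 units. Rplp0 and Rps28 lie low on all 6 knockout arrays and Rps9 and Rps29 on the MCU knockout arrays, Rpl35a and Rps26 scatter in control, and Rpl3 and Rpl3l overlap between all genotypes or nearly so.

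Copies and paralogues, counted with Rpl3l, lay on both sides of control. Of 12 such members, 8 (66.7%) were below control in the MCU knockout and 6 (50%) in the MCUb knockout, with medians of -0.09 and -0.03. The 12 include Rpl39l and Rps23rg1, which had too little signal over background to be compared. The share of all members below control was 77.6% and 61.2%. Rpl22l1, which can stand in for Rpl22, was at 12.99, 12.19 and 13.44 in control and at 12.20, 12.50 and 12.29 in the MCU knockout, so that control replicate 2 lay with the knockouts (change -0.55, SE 0.29, adjusted p = 0.554). The change was -0.26 without control replicate 3 and -0.89 without control replicate 2. Its partner Rpl22 was at -0.05. Rps27l, a stress-inducible paralogue of Rps27, was at -0.44 (adjusted p = 0.516; -0.26 without control replicate 3), and the retrogene Rps27rt at -0.49 (adjusted p = 0.474). Rpl36al was above all control arrays in the MCUb knockout, at 14.01, 14.34 and 13.97 against 13.73, 13.96 and 13.63 (change 0.33, SE 0.19, adjusted p = 0.658). Rps4l, annotated as a transcribed pseudogene, had the highest change between the knockouts (0.32, adjusted p = 0.969; 0.17 without MCU knockout replicate 1). Near-identical copies such as Rpl37 and Rpl37rt, Rpl32 and Rpl32l, or Rpl36a and Rpl36al may share signal through their probes, so which copy a value belongs to is uncertain.

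Between MCUb knockout and control, the members lay closer to all other genes. Of the 67, 41 (61.2%) were below control, against 54% of all probe sets and 48.7% of those above background, with a median log2 change of -0.10 against -0.03. In limma 0 members passed, where 5 of 22206 probe sets (0.0225%) passed. At an unadjusted p under 0.05, 8 members differed, 5 lower and 3 higher, against 8.11% of all probe sets, 4.21% lower and 3.9% higher. The members' share of 11.9% was near the 11.2% of probe sets above background. By direction, 497 of those 9948 probe sets were lower and 613 higher. The groups did not overlap in 14 members (20.9%), 10 lower and 4 higher, against 12.8% of all probe sets, 7.02% lower and 5.73% higher, and 14.8% of those above background. Without control replicate 2 the counts were 24 lower and 10 higher, against 18% and 13.6% of all probe sets. Without control replicate 3 they were 11 (16.4%) and 7 (10.4%), against 11.4% and 10.3% of all probe sets. The median was -0.03 without control replicate 3 and -0.05 without MCUb knockout replicate 1. Both comparisons with control share the control arrays, so that a low or high control value enters both.

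Apart from Rplp0 and Rps28, the lowest members in the MCUb knockout were Rpl14 and Rpl11. Rpl14 stood at 16.03, 15.46 and 16.10 in control and at 15.24, 15.43 and 15.44 in the MCUb knockout, so that control replicate 2 was only just above the knockout arrays (change -0.50, SE 0.20, adjusted p = 0.577). Rpl11 was at 12.75, 12.17 and 13.10 against 12.20, 12.38 and 11.96, with overlap (change -0.49, SE 0.25, adjusted p = 0.623). Rpl9 had a tight control group, 14.73, 14.71 and 14.72, and lay at 14.28, 14.24 and 14.48 in the MCUb knockout (change -0.39, SE 0.16, adjusted p = 0.588). On the high side were Rps26 at 0.67 (SE 0.31), Rps23 at 0.47 (SE 0.19) and Rps25 at 0.45 (SE 0.20), with adjusted p of 0.619, 0.577 and 0.605. Rps26 was at 0.31 without control replicate 3 and at 1.06 without control replicate 2, and Rps25 was at 0.28 without control replicate 3. Rps25 was at 17.19, 17.14 and 17.15 against 16.72, 17.04 and 16.37 in control, and Rps23 at 16.31, 16.47 and 16.51 against 15.88, 16.27 and 15.72. Both were above every control array.

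Set directly against the MCUb knockout, the MCU knockout again had most members on the low side, by small amounts. There 55 of 67 (82.1%) were lower, against 47.7% of all probe sets and 52.5% of those above background, with a median of -0.08 against 0.01. In limma 0 passed, where 35 of 22206 (0.158%) passed, and at an unadjusted p under 0.05 there were 3 lower and 0 higher, against 5.7% of all probe sets, 3.02% lower and 2.68% higher. The members' share was 4.48%, under the 8.81% of probe sets above background. By direction, 526 of those 9948 probe sets were lower and 350 higher. The 3 members were Rps9, Rpl36al (-0.45, SE 0.19) and Rpl6 (-0.39, SE 0.17). The groups did not overlap in 15 members (22.4%), 14 lower and 1 higher, against 12.8% of all probe sets, 6.19% lower and 6.59% higher, and 15.4% of those above background. Without MCUb knockout replicate 1, 27 lay lower and 2 higher without overlap, against 10.9% and 11.5% of all probe sets, and the median was -0.15. Without MCU knockout replicate 1, 45 of 67 were lower. There 16 lay lower and 5 higher without overlap, against 11.5% and 12.7% of all probe sets. Leaving out other single arrays of the knockouts left 46 to 55 of 67 lower. Centring each array on the bright probe sets left 48 of 67 lower with a median of -0.05, where the median of all probe sets was 0.04. Rpl6 was at 15.18, 15.07 and 14.87 in the MCU knockout against 15.30, 15.51 and 15.47 in the MCUb knockout and 15.39, 15.43 and 15.51 in control. Each MCU knockout array was thus below the other 6 (adjusted p = 0.849 between the knockouts and 0.472 against control).

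Other genes of the translation machinery, taken as lists from general knowledge, lay on both sides of control. Fau, a ribosomal protein gene without the prefix, was at -0.33 and -0.21 against control (adjusted p = 0.657 and 0.825). Of 10 genes in a list of elongation factors and related genes, 4 were below and 6 above control in each knockout (medians 0.08 and 0.04), and 0 passed. Those above control include the kinase gene Eef2k (0.30 and 0.54) and Eef1e1 (0.11 and 0.05). They also include Eif5a2 (0.42 and 0.24), which was above background on no array. The medians thus depend on which genes the list holds. Eef1b2, an exchange factor of eEF1A, was at 13.38, 13.00 and 13.75 in control, 12.84, 12.67 and 12.48 in the MCU knockout and 12.37, 12.64 and 12.95 in the MCUb knockout (changes -0.71 and -0.72, SE 0.23, adjusted p = 0.368 and 0.534). The knockout arrays all lay below the control arrays. Of 29 initiation factor genes 17 and 15 were below control, with a median of -0.09 in both, 0 past the threshold. Of 12 measured genes in a list of other oligopyrimidine-tract mRNAs, which shares genes with the lists above, 8 were above control in each knockout, with medians of 0.13 and 0.15.

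Genes that build ribosomes and govern their output did not pass either. Of 50 ribosome biogenesis genes 25 were below control in each knockout, with a median of -0.00 in both. At an unadjusted p under 0.05, 1 was higher and 2 lower in the MCU knockout, and 5 were higher and 0 lower in the MCUb knockout, where 3.9% and 4.21% of all probe sets were. The 5 were Nol6 (1.18), Nmd3 (0.78), Npm1 (0.66), Sbds (0.63) and Ncl (0.46), with adjusted p of 0.534 to 0.607 in limma. Nmd3, the export adaptor of the large subunit, was at 8.65, 7.99 and 8.09 in control and at 8.58, 9.45 and 8.94 in the MCU knockout (change 0.75, SE 0.26, adjusted p = 0.389). RNA polymerase I genes, 10 measured, had medians of 0.25 and 0.02. Of 14 growth control genes, 8 were below control in each knockout (medians -0.04 and -0.06). At an unadjusted p under 0.05, 4 were lower and 0 higher in the MCU knockout, against 5.35% and 4.76% of all probe sets, and 0 lower and 1 higher (Maf1, 0.53) in the MCUb knockout, against 4.21% and 3.9%. Mtor, the kinase of mTORC1, was at 9.13, 7.46 and 8.45 in control and at 6.58, 6.99 and 7.27 in the MCU knockout, with no overlap (change -1.40, SE 0.39, adjusted p = 0.311). Tsc2, an inhibitor of mTORC1, was at 12.32, 12.09 and 12.27 against 11.56, 11.59 and 11.91 (change -0.54, SE 0.18, adjusted p = 0.373), and Tsc1, its partner, at -0.55 (adjusted p = 0.412). Larp1, which holds tract mRNAs back from translation, was at -0.09 (adjusted p = 0.899).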

How the data were processed

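RNA of 9 muscle samples was labelled with a 3' IVT Pico kit and hybridised to Clariom S arrays, per the labels' protocols. The deposited table holds 1 value per probe set and array, read here as log2, for which the submitters' processing notes name Affymetrix Expression Console as the authors' tool. Its version, normalization and log base are not given in the sources used here, so every fold rests on base 2. Of the features, 6640 controls were left out and 22206 probe sets tested. Symbols came from the platform annotation, matched by gene identifier to the RefSeq table of GRCm38.p6 (19572 of 19572 matched).

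The moderated, two-sided test of limma 3.58.1 (R 4.3.3) was applied to 1 linear fit of 3 group means over 9 arrays, whose residual degrees of freedom were 6, plus 5.06 from the prior, with Benjamini-Hochberg adjustment over all 22206 probe sets at 0.05. The script was tested on simulated data. The changes planted there were larger than that of any member, so it does not tell how often changes of the members' size would be found. The number of arrays limits the precision. Values are log2 signal, changes are log2 differences, and ± is the SD with n = 3. Alternatives were quantile normalization, testing bright probe sets alone, 2 centrings, a trended robust prior, array weights, fits of 2 groups, a replicate block, the Y-linked level as a covariate, averaging of probe sets and leaving out each array.

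The members and lists were chosen with earlier results of these data known. Named are the paralogues, stalk genes and a fixed set of well-known members, the 6 highest and 6 lowest changes and 3 smallest p-values of each comparison where a sentence turns on them, and up to 3 genes of each list and comparison. Genes of the intermediate ranks, Larp1 and further biogenesis genes were named after their values were seen.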

Additional observations from a re-analysis of the deposited data

Results flagged for a closer look

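Rps10, a protein of the small subunit's head and a Diamond-Blackfan anaemia gene, stood on opposite sides of the control mean in the knockouts. Its log2 level was 11.06, 10.90 and 11.38 in control, 10.60, 11.03 and 10.89 in the MCU knockout and 11.12, 11.43 and 11.16 in the MCUb knockout. Every MCU knockout array lay below the control mean of 11.11 and every MCUb knockout array above it. The direct difference was -0.39 (SE 0.20, adjusted p = 0.918 in limma, unadjusted p = 0.0747), so the test did not separate the knockouts.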

How the results depend on the processing

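The number of members past the threshold was 0 under 56 of 57 alternatives over the 3 comparisons, and 1 (Rplp0) between MCU knockout and control without control replicate 2, where 98 of all probe sets passed instead of 31. Leaving out single arrays gave 0 to 1 there, and median log2 changes of -0.22 to -0.14 between MCU knockout and control, -0.16 to -0.03 between MCUb knockout and control and -0.15 to -0.08 between the knockouts. The median of -0.03 was that without control replicate 3, and -0.15 that without MCUb knockout replicate 1. Of 931 values of named genes under the alternatives, 921 kept their sign and their side of the threshold and 9 changed sign. Several alternatives cannot alter a member's log2 change, so many of the kept signs were fixed in advance. Among them are the test of bright probe sets alone, the trended robust prior, the fits of 2 groups and the replicate block. The averaging of probe sets and leaving out an array of the group not compared are further ones. With array weights Rpl22 was at 0.03 and Rpl3 at -0.03 in the MCU knockout against control. Without single arrays Rpl22 ranged from -0.16 to 0.04, Rpl3 from -0.09 to 0.11 and Rps26 from -0.04 to 0.70 in that comparison, and Rpl3 from -0.31 to 0.00 in the MCUb knockout. Same-numbered arrays did not vary together over all probe sets, with correlations of their deviations from the group means between -0.121 and 0.0882. The labels do not say what a replicate number shares, and these correlations cannot exclude a shared origin. With a replicate block 0 members passed in each comparison, the smallest adjusted p was 0.248, 0.521 and 0.645, and 24, 5 and 28 of all probe sets passed. Counts of members whose arrays do not overlap were added without single arrays after seeing the data. With 3 arrays a group, the median standard error of a member's log2 change was 0.19, and Rpl39l and Rps23rg1 had too little signal over background to be compared.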
